A study of Homo sapiens with 6 samples.

Results

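Kinesins are the motor proteins encoded by the KIF and KIFC genes, and 42 of the 60676 genes in the count table carried a symbol of this superfamily (KIF followed by a number and at most one letter A to C, or KIFC1 to KIFC3). They were followed in TC71, a Ewing sarcoma cell line, 3 days after induction of an shRNA against EHD1, an ATPase of endocytic recycling. KIF14, a motor of the central spindle and midbody, was the kinesin with the largest change: it fell from 85.0 ± 1.71 to 33.7 ± 0.916 CPM (counts scaled to library size; mean ± SD, n = 3 libraries per group). None of the other 11 mitotic kinesins tested passed the threshold. Among 15 transport kinesins tested, KIF13A, KIF13B and KIF16B rose and KIFC2 fell, but the count of 4 calls became 1 when any one of the shEHD1+Dox libraries was omitted. Of 33 kinesins tested, 5 were called, beside 17.3% of all genes.

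Both groups were polyclonal TC71 lines selected with puromycin and carrying a lentiviral, doxycycline (Dox)-inducible shRNA construct, and both received 0.5 µg/ml Dox for 3 days, so that Dox itself does not separate them. The control expressed a non-targeting shRNA (shNTC+Dox) and the other group an shRNA against EHD1 (shEHD1+Dox). The sources used here do not state which of the study's EHD1 shRNAs these libraries carried, so effects of the targeted gene and of the shRNA sequence itself cannot be told apart. The 3 control libraries held 26528902, 28203023 and 22711235 counts and the 3 knockdown libraries 28157184, 24150135 and 30582187. Nothing in the labels says whether replicates came from separate cultures, so p-values measure the spread between these libraries only.

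Kinesins walk along microtubules by hydrolysing ATP, most of them toward the plus end, and members of the KIFC group toward the minus end. Transport kinesins carry vesicles, endosomes, mitochondria and ciliary cargo, while mitotic kinesins build the spindle, move chromosomes and complete cytokinesis, and their transcripts are known to peak as cells approach division. In bulk RNA a change in the share of cells of one kind and a change of RNA per cell cannot be told apart. The members were placed in 3 classes from general knowledge: 14 mitotic, 17 transport and 11 cilium and other kinesins.

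The targeted gene was examined first. EHD1 (ENSG00000110047) stood at 27.1, 28.0 and 26.4 CPM in the shNTC+Dox libraries and at 7.55, 7.15 and 9.37 CPM in the shEHD1+Dox libraries. The groups did not overlap, and the log2 fold change was -1.76 (SE 0.12, edgeR adjusted p = 0.000135). All 10 Ewing sarcoma markers passed the filter on low counts, among them CD99 at 219 to 318 CPM and NR0B1, a target of the EWS-FLI1 fusion, at 158 to 223 CPM over the 6 libraries. Of these 10 markers 1 was called higher (CD99) and 3 lower (BCL11B, NPY1R and STEAP1, with log2 fold changes of -0.75, -0.45 and -0.43), beside 8.59% of all genes called higher and 8.75% lower, and their median log2 fold change was -0.22. CD99 lost its call in 4 of the 6 omissions of a library and with the replicate number as a block, and the 3 lower calls in none of these. The markers' mean log2 CPM relative to the 6 libraries came to 0.03, 0.06 and 0.17 for the controls, against -0.10, -0.09 and -0.07 for shEHD1+Dox, so that the groups did not overlap. The markers summed to 2926, 2939 and 3057 CPM in shNTC+Dox, against 2693, 2812 and 2785 CPM in shEHD1+Dox, with CCND1 the most abundant in each library. None of 5 epithelial markers passed it, and the list summed to at most 0.418 CPM in a library. KRT5 and KRT14 had no count. Of 6 fibroblast markers, all of which passed, COL3A1 was the most abundant per library (171 to 391 CPM), and the list summed to 344, 343 and 257 CPM in shNTC+Dox, against 449, 512 and 490 CPM in shEHD1+Dox. COL3A1 rose and DCN fell, and the other 4 were not called. The mean relative log2 CPM of this list overlapped between groups. It was 0.12, 0.23 and -0.63 for the controls, against 0.15, -0.18 and 0.30 for shEHD1+Dox. The part of these 2 lists in the kinesin results was not tested.

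Short promoter words common in the mitotic class are shown here for KIF14, for 3 mitotic kinesins that did not pass the threshold, and for KIF13A and KIF16B, which rose. Each stretch runs from 100 bases before to 50 after the RefSeq gene start (GRCh38.p14), with capitals marking TTTGAA or TTCGAA, words of the cell cycle homology region, and CCAAT, on either strand.
KIF14 (chr1:200620702-200620851, minus strand): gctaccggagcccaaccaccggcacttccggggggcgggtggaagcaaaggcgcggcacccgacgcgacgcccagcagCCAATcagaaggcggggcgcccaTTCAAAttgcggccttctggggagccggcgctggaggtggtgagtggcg
KIF11 (chr10:92593030-92593179, plus strand): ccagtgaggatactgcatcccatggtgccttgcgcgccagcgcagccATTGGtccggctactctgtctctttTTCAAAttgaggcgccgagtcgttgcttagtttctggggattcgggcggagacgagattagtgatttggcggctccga
KIF23 (chr15:69414249-69414398, plus strand): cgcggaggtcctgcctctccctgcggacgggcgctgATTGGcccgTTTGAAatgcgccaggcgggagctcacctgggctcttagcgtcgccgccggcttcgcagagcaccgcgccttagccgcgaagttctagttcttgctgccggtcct
KIF22 (chr16:29790651-29790800, plus strand): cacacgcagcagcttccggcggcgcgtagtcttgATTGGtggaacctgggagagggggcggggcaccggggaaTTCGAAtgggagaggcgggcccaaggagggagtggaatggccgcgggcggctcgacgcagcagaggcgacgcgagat
KIF13A (chr6:17987586-17987735, minus strand): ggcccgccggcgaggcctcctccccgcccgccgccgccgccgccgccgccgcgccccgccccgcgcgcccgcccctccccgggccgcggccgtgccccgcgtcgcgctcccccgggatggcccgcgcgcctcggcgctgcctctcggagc
KIF16B (chr20:16573399-16573548, minus strand): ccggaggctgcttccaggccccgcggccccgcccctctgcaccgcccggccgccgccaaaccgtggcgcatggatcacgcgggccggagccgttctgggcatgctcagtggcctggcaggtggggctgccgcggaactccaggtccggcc

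RefSeq promoter windows of 300 bases (250 before to 50 after the start) matched 34 of the 42 kinesins. The 8 without a window include the called transport kinesins KIF13B and KIFC2. The others are the transport kinesins KIF5A, KIF21B and KIFC3, and KIF19, KIF26B and KIF27. TTTGAA or TTCGAA lay in the windows of 11 of 14 mitotic kinesins (78.6%), 1 of 12 transport kinesins (KIF5B, 8.33%) and 1 of 8 cilium and other kinesins (KIF24, 12.5%), beside 19.5% of all 27305 genes with a window. CCAAT lay in 11 of 14 mitotic, 4 of 12 transport and 3 of 8 other kinesins, beside 39.7% of all genes. Both words were held by 10 mitotic kinesins (71.4%) and by 9.02% of all genes. KIF14 holds both kinds of word, as do KIF11, KIF23 and KIF22, the other mitotic kinesins shown. Mitotic kinesins without both were not shown: KIF20A holds CCAAT only, KIF15 TTTGAA only, and KIF2B and KIF2C neither word. A match is a description of the letters, and neither binding nor promoter activity was measured.

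Of the 42 kinesins, 33 had at least 10 counts in at least 3 libraries and were tested among 16785 genes. Another 4 (KIF2B, KIF6, KIF12 and KIF19) had no count in any library, which at 3 counts allows up to 0.0968 to 0.134 CPM per library. The remaining 5 were near the floor: KIF1A had at most 9 counts in a library, KIF26B 6, KIF25 4, KIF5C 10 and KIF4B 11. KIF4B is an intronless near-copy of KIF4A, and the assignment of reads between them is uncertain. These 9 members are not part of the counts of called members, and no fold was computed for them. KIF4B does appear in the order of levels, and KIF26B and KIF5C in the counts of 3′ untranslated regions.

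Per kilobase of exon, the scale on which levels of different genes can be compared, KIF5B, the ubiquitous conventional kinesin heavy chain, was the most abundant kinesin in shNTC+Dox at 67.1 ± 1.62 CPM per kb (SD, n = 3). Mitotic kinesins took the next 6 places, from KIF2C (43.3 ± 1.34), a microtubule depolymerase of the kinetochore, through KIF11 (37.4 ± 5.49), which slides spindle poles apart, and KIF20A (37.4 ± 1.55), KIFC1 (30.9 ± 2.65) and KIF4A (29.1 ± 2.98) to KIF22 (18.1 ± 1.12). KIF11 and KIF20A did not differ beyond their spread, and neither did KIFC1 and KIF4A. Per kilobase of the longest transcript instead, KIFC3, a transport kinesin, took place 6 (36.6 CPM per kb, against 13.5 CPM per kb of all exons), ahead of KIF4A and KIF22. KIF14 was the 13th of 34 kinesins at 11.7 ± 0.234 CPM per kb in shNTC+Dox, and at 4.62 ± 0.126 CPM per kb in shEHD1+Dox it lay between KIF3C (4.89) and KIF3A (4.38). The class medians in shNTC+Dox were 15.3 CPM per kb for 13 mitotic kinesins, 3.90 for 15 transport kinesins and 3.66 for 6 cilium and other kinesins. Of 33 neighbouring pairs in the order, 15 were separated by more than their SD and 18 were not.

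**Figure D1:**
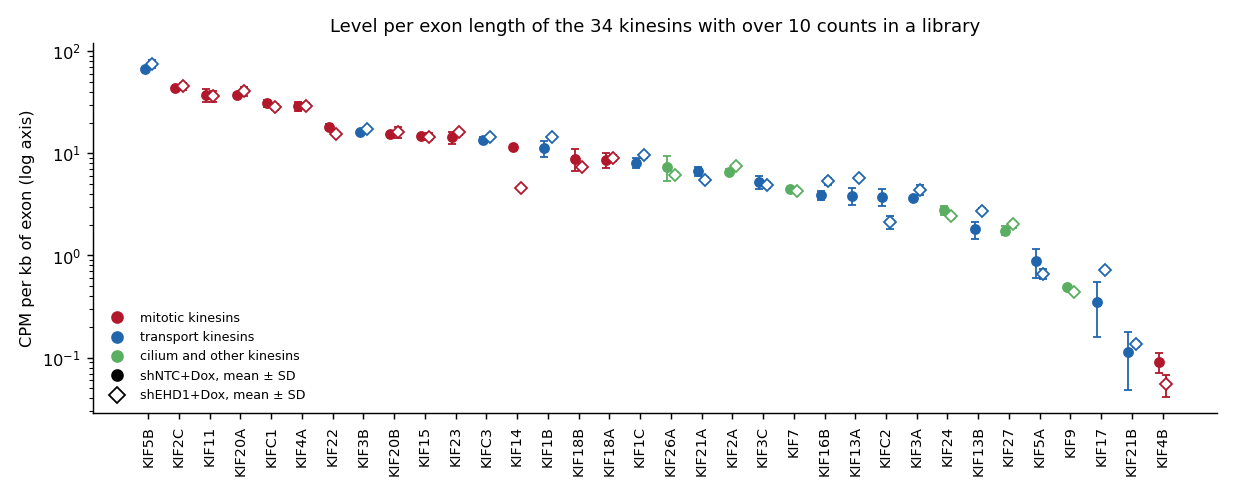
Level of 34 kinesins per exon length, in CPM per kilobase on a log axis, ordered by the shNTC+Dox mean. Points are means and bars SD of 3 libraries, filled for shNTC+Dox and open for shEHD1+Dox; KIF5B leads at 67.1, red mitotic kinesins fill most of the upper part, and KIF14 drops from 11.7 to 4.62.

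KIF14 (ENSG00000118193, chr1:200551497-200620751, minus strand of GRCh38, exons shared with no other gene) binds PRC1 and citron kinase at the central spindle and is needed to finish cytokinesis. It had 2208, 2329 and 1942 counts in shNTC+Dox, against 968, 841 and 1010 in shEHD1+Dox. Scaled to library size, these were 83.9, 84.1 and 87.0 CPM against 33.99, 34.4 and 32.6 CPM. The replicates of each group lay within a few CPM of each other and the groups were far apart. The log2 fold change was -1.34 (SE 0.07, 95% interval -1.49 to -1.19), a 2.52-fold fall with an edgeR adjusted p of 2.73e-05. By p-value KIF14 ranked 5 among the 16785 genes tested, although 156 called genes fell further. Its exact permutation p was 0.1, the smallest that 3 against 3 libraries allow.

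**Figure D2:**
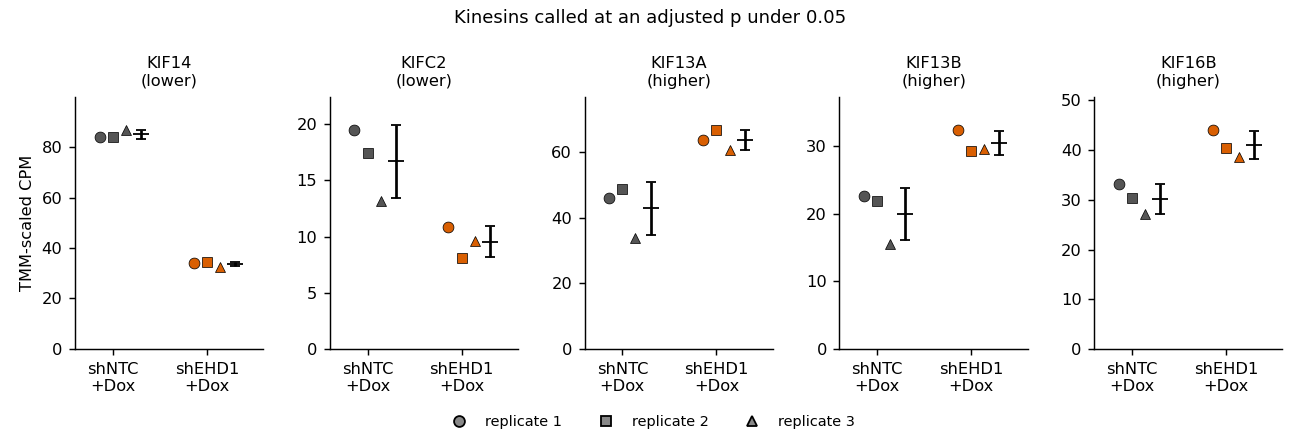
TMM-scaled CPM of the 5 kinesins with an adjusted p under 0.05, one panel per gene with its own axis from 0. Symbols are single libraries, and bars to their right are mean ± SD (n = 3); KIF14 shows tight groups at 83.9 to 87.0 and 32.6 to 34.4 CPM, while the control libraries of KIFC2, KIF13A and KIF13B are spread more widely.

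Of the 12 mitotic kinesins tested 1 was called lower (8.33%) and none higher, beside 8.75% and 8.59% of all genes. The share of lower calls was therefore near that of all genes. The other mitotic kinesins did not pass the threshold with KIF14. Their log2 fold changes ran from -0.28 for KIF18B, a motor of astral microtubules, to 0.16 for KIF23, the kinesin of the centralspindlin complex, with adjusted p from 0.0691 to 0.930. Over all 11 of them the 95% intervals reached from -0.63 to 0.38, so each interval excluded a fall of the size seen for KIF14. KIF22, a chromokinesin, had the lowest adjusted p (0.0691), with 123, 128 and 138 CPM in shNTC+Dox, against 116, 108 and 111 in shEHD1+Dox. Its groups did not overlap, and its log2 fold change was -0.21 (SE 0.07). Without shNTC+Dox replicate 3 the log2 fold change of KIF18B was -0.06, and that of KIF23 was 0.27 and called higher (adjusted p = 0.0171). The Wald test of DESeq2 called KIF22 lower (adjusted p = 0.0350).

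KIF11, the target of antimitotic inhibitors, stood at 186, 179 and 233 CPM in shNTC+Dox, against 179, 219 and 182 CPM in shEHD1+Dox. Its groups overlapped, and in all those of 10 of the 12 mitotic kinesins did, while 39.3% of all genes had groups without overlap. KIF23 and KIF20A, which like KIF14 act at the central spindle, had log2 fold changes of 0.16 (SE 0.10) and 0.11 (SE 0.08). KIF14 amounted to 7.17%, 7.34% and 6.54% of the summed CPM of the other 11 mitotic kinesins in the shNTC+Dox libraries, and to 2.73%, 2.80% and 2.79% in the shEHD1+Dox libraries. The median log2 fold change of the class was -0.01 with KIF14 and 0.01 without it, beside 0.00 over all genes tested.

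**Figure D3:**
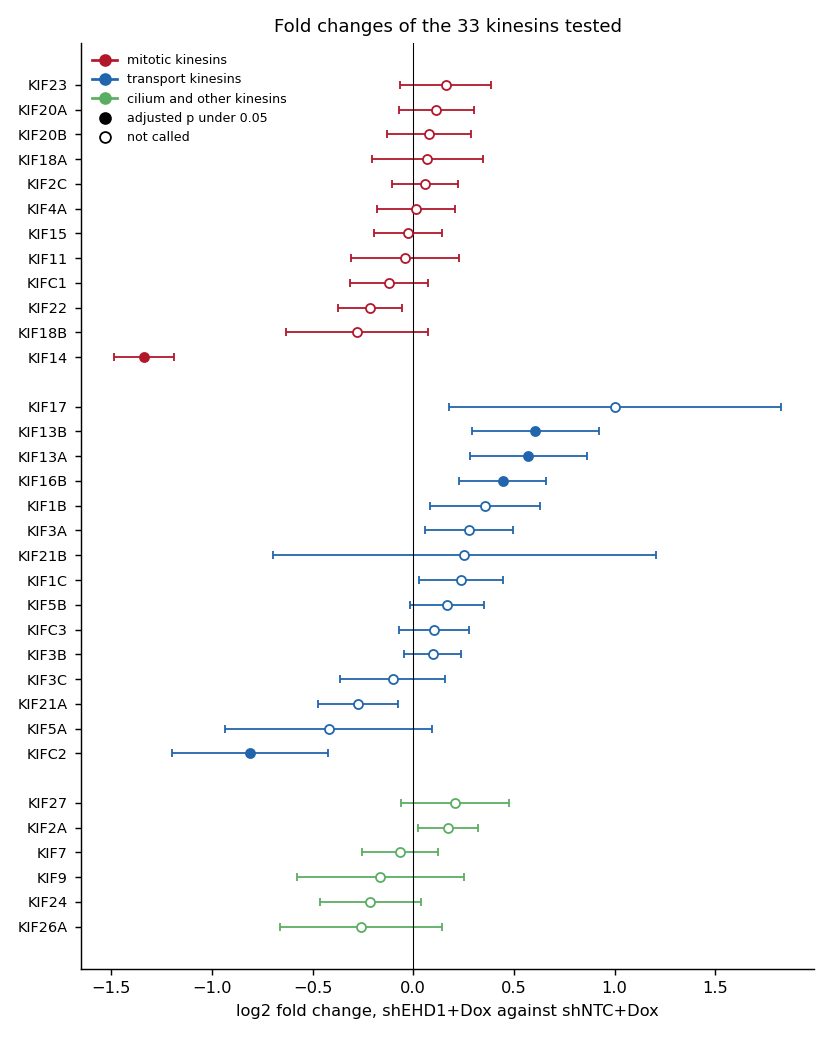
Log2 fold change of the 33 tested kinesins, shEHD1+Dox against shNTC+Dox, by class. Bars are 95% intervals and filled points have an adjusted p under 0.05; the interval of KIF14 (-1.49 to -1.19) lies apart from those of the 11 other mitotic kinesins, which lie between -0.63 and 0.38.

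In all, 5 of the 33 tested kinesins passed an adjusted p of 0.05, 3 higher and 2 lower, while 17.3% of all genes tested passed (8.59% higher and 8.75% lower). The share of kinesins was therefore near that of all genes. With the study's added requirement of a fold of at least 2, KIF14 alone was left, against 2.82% of all genes in either direction and 1.74% lower. At an unadjusted p under 0.05 there were 12 of 33 kinesins, 2 of them mitotic, while 32.3% of all genes passed it.

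Transport kinesins held 4 of the 5 calls. Of 15 tested, 3 were called higher and 1 lower, beside 8.59% and 8.75% of all genes, and their median log2 fold change was 0.24, against 0.00 over all genes. The 4 calls became 1 without any one of the shEHD1+Dox libraries and 8 without shNTC+Dox replicate 3, where the median was 0.15. Calls over all genes also moved, from 2910 to 1341, 2074 and 1322 without shEHD1+Dox replicates 1, 2 and 3. They came to 3616 without shNTC+Dox replicate 3. In 10 of the 15 the groups did not overlap, 8 with all shEHD1+Dox libraries above and 2 with all below, against 19.9% of all genes above and 19.4% below. Among the 12 mitotic kinesins 2 did not overlap, KIF14 and KIF22.

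KIF13A (chr6:17759183-17987635, minus strand), which moves recycling endosomes and melanosome cargo, had 46.1, 48.9 and 33.7 CPM in shNTC+Dox, against 63.9, 67.0 and 60.7 CPM in shEHD1+Dox. KIF13B (chr8:29067278-29263124, minus strand), its close relative, had 22.6, 21.9 and 15.5 CPM against 32.5, 29.3 and 29.6 CPM. Both genes were lowest in shNTC+Dox replicate 3, and neither had overlapping groups. The log2 fold change of KIF13A was 0.57 (SE 0.13, edgeR adjusted p = 0.0185). That of KIF13B was 0.61 (SE 0.14, edgeR adjusted p = 0.0199), with 864 exonic bases shared with other genes on the opposite strand, whose reads this unstranded kit cannot separate. Both lost the call when any 1 of the 3 shEHD1+Dox libraries was left out (adjusted p 0.0532 to 0.0682 for KIF13A and 0.0521 to 0.0798 for KIF13B), while the log2 fold changes were then 0.54 to 0.61 and 0.56 to 0.63.

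KIF16B (chr20:16272104-16573448, minus strand), which binds phosphoinositides of early endosomes and carries them toward the cell periphery, had 33.1, 30.3 and 27.0 CPM in shNTC+Dox, against 44.1, 40.4 and 38.6 CPM in shEHD1+Dox. Every shEHD1+Dox library lay above every control library. Its log2 fold change was 0.44 (SE 0.10, edgeR adjusted p = 0.0152), and the adjusted p was 0.0729 without shEHD1+Dox replicate 1.

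KIFC2 (chr8:144466043-144474202, plus strand), a minus end directed motor best known from neurons, was the transport kinesin called lower. It had 19.5, 17.4 and 13.2 CPM in shNTC+Dox, against 10.9, 8.09 and 9.63 CPM in shEHD1+Dox. Its groups did not overlap, the lowest control library again being replicate 3. The log2 fold change was -0.81 (SE 0.17, edgeR adjusted p = 0.0138), and 791 of its exonic bases are shared with FOXH1 on the opposite strand. Without shEHD1+Dox replicate 2 or 3 its adjusted p was 0.0518 or 0.0567.

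KIF14, KIF13A, KIF13B and KIF16B all belong to the kinesin-3 family by their motor domains, a grouping made after the values were seen. Of its members 6 were tested, 3 of them called higher and 1 lower, beside 8.59% and 8.75% of all genes, and nothing is read from this count since the values chose the family. The 2 not called were KIF1B, which carries mitochondria and synaptic vesicle precursors, and KIF1C, a motor of dense core vesicles and integrin cargo. KIF1B had 227, 239 and 169 CPM in shNTC+Dox, against 262, 284 and 268 CPM in shEHD1+Dox, a log2 fold change of 0.36 (SE 0.12, adjusted p = 0.0761) without overlap of the groups. Without shNTC+Dox replicate 3 it was 0.22 (adjusted p = 0.0333). KIF1C had a log2 fold change of 0.24 (SE 0.09, adjusted p = 0.113), and its groups overlapped. Without shNTC+Dox replicate 3 that of KIF1C was 0.33 and called higher (edgeR adjusted p = 0.00878). By sign alone, in a family chosen from the values, KIF14 had a negative log2 fold change and its 5 tested relatives positive ones. Those of KIF1B and KIF1C did not pass the main test.

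The other transport families showed smaller or less certain differences. KIF5B had 392, 403 and 384 CPM in shNTC+Dox, against 428, 490 and 405 CPM in shEHD1+Dox (log2 fold change 0.17, SE 0.08, adjusted p = 0.196). Its log2 fold change ran from 0.08 to 0.22 when each library was left out in turn. KIF3A and KIF3B, the motor pair of heterotrimeric kinesin-2 that drives intraflagellar transport, had log2 fold changes of 0.28 (SE 0.10, adjusted p = 0.0813) and 0.10 (SE 0.06, adjusted p = 0.325), without overlap of their groups. KIF17, a homodimeric kinesin-2, had the largest positive log2 fold change of any kinesin, 1.00 (SE 0.36, adjusted p = 0.0932), on 39, 69 and 17 counts against 92, 81 and 94, and it was called without shNTC+Dox replicate 2 (1.49, adjusted p = 0.0246) but under no other omission, with 0.68 (adjusted p = 0.0875) without shNTC+Dox replicate 3. KIF21A, which restrains microtubule growth at the cell cortex, had 70.3, 72.4 and 60.1 CPM in shNTC+Dox, against 54.6, 59.6 and 53.7 CPM in shEHD1+Dox (log2 fold change -0.27, SE 0.09, adjusted p = 0.0647). Its groups did not overlap. The Wald test of DESeq2, which called 8 kinesins and 23.9% of all genes, included KIF1B (adjusted p = 0.0234) and KIF21A (adjusted p = 0.0341) in these same directions.

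None of the 6 cilium and other kinesins tested passed the threshold, beside 17.3% of all genes, and nothing is read from this count. Their log2 fold changes ran from -0.26 for KIF26A, a kinesin-like protein without motor activity, to 0.21 for KIF27, and the median was -0.11. The log2 fold change of KIF26A was -0.01 without shNTC+Dox replicate 3. KIF2A, a microtubule depolymerase, had 85.3, 91.1 and 83.0 CPM in shNTC+Dox, against 99.0, 98.2 and 95.4 CPM in shEHD1+Dox (log2 fold change 0.17, SE 0.07, adjusted p = 0.103). KIF7, the ciliary regulator of Hedgehog signalling, had a log2 fold change of -0.07 (SE 0.08), and the interval reached from -0.26 to 0.12.

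Viewed by library, the classes did not split into shNTC+Dox and shEHD1+Dox alone. The mean log2 CPM of the 15 transport kinesins, relative to the mean of the 6 libraries, came to 0.05, 0.04 and -0.39 for the controls, against 0.14, 0.10 and 0.05 for shEHD1+Dox. The low control value includes KIF17 and KIF21B, with 17 and 12 counts in that library. For the 11 mitotic kinesins other than KIF14 it was -0.05, -0.09 and 0.16 for the controls, against 0.03, 0.01 and -0.06 for shEHD1+Dox. Control replicate 3 was thus the lowest library for transport kinesins and the highest for these mitotic kinesins, and it also stood apart on the second principal component of all genes (-38.7, against 32.8 and 29.1 for the other controls). It was not the only library to do so. On that component shEHD1+Dox replicate 2 lay at -24.2, against 2.09 and -1.01 for replicates 1 and 3 of its group. Without control replicate 3, a total of 10 kinesins were called (21.8% of all genes then passed, 11.4% higher and 10.5% lower): KIF14, KIFC2, KIF21A and KIF5A lower, and KIF13A, KIF13B, KIF16B, KIF1B, KIF1C and KIF23 higher. The median log2 fold change of transport kinesins was then 0.15 and that of mitotic kinesins 0.08. The log2 fold change of KIF14 ran from -1.35 to -1.31 when each library was left out in turn.

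**Figure D4:**
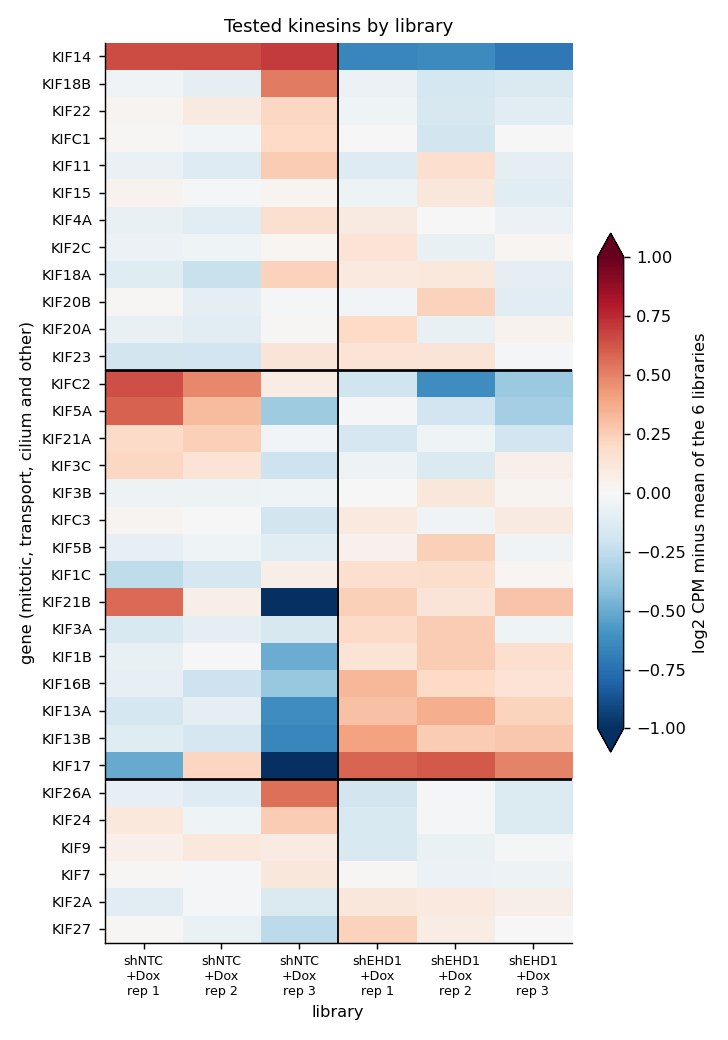
Log2 CPM of the 33 tested kinesins in each library, minus the mean of the 6 libraries (color scale limited to -1 to 1), with classes separated by horizontal lines and groups by the vertical line. KIF14 splits the groups sharply, and the shNTC+Dox replicate 3 column is blue for most transport kinesins (class mean -0.39) and red for most mitotic kinesins other than KIF14 (mean 0.16).

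Proteins that work with kinesins were read from 3 lists. Of 18 light chains and cargo adaptors 17 were tested, none was called higher and 2 (11.8%) were called lower, beside 8.59% of all genes higher and 8.75% lower, with a median log2 fold change of 0.07. KLC2, a light chain that links kinesin-1 to cargo, had 37.7, 41.1 and 40.2 CPM in shNTC+Dox, against 25.1, 28.9 and 29.0 CPM in shEHD1+Dox (log2 fold change -0.52, SE 0.09, edgeR adjusted p = 0.00486), with 720 exonic bases shared with other genes. The other call was MAPK8IP2, a scaffold of JNK signalling (-1.40, SE 0.27), named after its values were seen. KLC1 (0.02, SE 0.06, with 7817 of 19251 exonic bases shared with other genes), KLC4 (0.17, SE 0.13), the mitochondrial adaptors TRAK1 (-0.00, SE 0.07) and TRAK2 (0.21, SE 0.11), the kinesin-2 subunit KIFAP3 (-0.20, SE 0.09) and KIFBP, an inhibitor of kinesin motors (0.11, SE 0.10), did not pass.

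Of 20 mitotic partners of kinesins 2 (10%) were called higher and 1 (5%) lower, near the 8.59% and 8.75% of all genes, with a median log2 fold change of 0.07. The binding partners of KIF14 did not pass the threshold: PRC1, the bundler of the central spindle, had a log2 fold change of -0.08 (SE 0.07, 95% interval -0.24 to 0.08) and CIT, citron kinase, -0.01 (SE 0.10, interval -0.24 to 0.21). CENPE, a kinetochore motor of the kinesin superfamily whose symbol lies outside the rule, had 0.05 (SE 0.09). RACGAP1 (0.16, SE 0.08), the partner of KIF23, and TPX2 (0.13, SE 0.08), PLK1 (0.14, SE 0.12), AURKB (-0.29, SE 0.11) and INCENP (-0.01, SE 0.09) did not pass either. Without shNTC+Dox replicate 3, RACGAP1, TPX2 and PLK1 were called higher (adjusted p 0.0320, 0.0365 and 0.0131). The calls were BIRC5 and BUB1 higher and NUSAP1 lower, named after their values were seen; BIRC5 lost its call in 5 of the 6 omissions of a library, BUB1 without shEHD1+Dox replicate 1 and NUSAP1 without shEHD1+Dox replicate 3. PRC1 shares 3416 of its 5523 exonic bases with other genes and NUSAP1 3133 of 3608, so the assignment of their reads is uncertain.

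Of 19 regulators and markers of the passage from G2 into mitosis 4 (21.1%) were called higher and 2 (10.5%) lower, beside 8.59% and 8.75% of all genes, with a median log2 fold change of -0.02. CCNB1, cyclin B1, had 211, 217 and 248 CPM in shNTC+Dox, against 311, 275 and 295 CPM in shEHD1+Dox, a rise of 0.38 (SE 0.08, edgeR adjusted p = 0.0151). MKI67, a proliferation marker, rose by 0.30 (SE 0.07, edgeR adjusted p = 0.0248), and TOP2A, topoisomerase II alpha, fell by 0.29 (SE 0.08, edgeR adjusted p = 0.0313). The other calls, named after their values were seen, were CCNB2 (0.38, SE 0.09) and CDC20 (0.35, SE 0.09), which rose, and CDC25B (-0.45, SE 0.07, edgeR adjusted p = 0.00431), a phosphatase that activates CDK1, which fell. CCNB2 and CDC20 each lost their call in 4 of the 6 omissions of a library, and CCNB2 also with the replicate number as a block. CCNB1 lost its call without shNTC+Dox replicate 1 or 2 or shEHD1+Dox replicate 1 or 3 (adjusted p 0.0528 to 0.0692). MKI67 lost it without shNTC+Dox replicate 1 or 2 or shEHD1+Dox replicate 1 (adjusted p 0.0669 to 0.0910), and TOP2A without shNTC+Dox replicate 2 or shEHD1+Dox replicate 1 or 3 (adjusted p 0.0650 to 0.124). MKI67 and TOP2A also lost their calls with the replicate number as a block. FOXM1 (0.13, SE 0.10) and MYBL2 (-0.28, SE 0.12), which activate mitotic genes, and CDK1 (-0.11, SE 0.12) did not pass, and FOXM1 was called higher without shNTC+Dox replicate 3 (0.25, adjusted p = 0.0116). Without that library MYBL2 had -0.11 and CDK1 0.05, a change of sign, and neither passed. The mean relative log2 CPM of this list came to -0.09, -0.08 and 0.17 for the controls, against 0.04, -0.04 and 0.00 for shEHD1+Dox, again highest in control replicate 3.

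**Figure D5:**
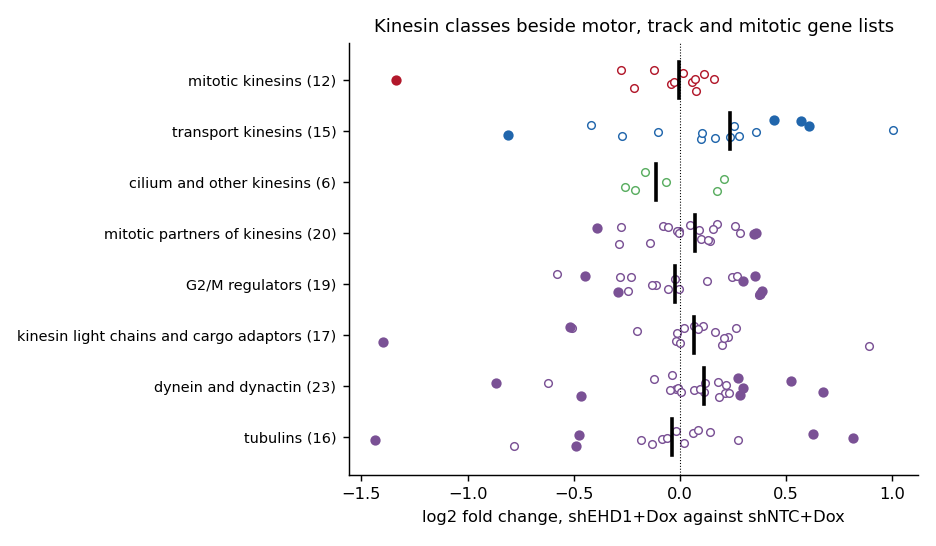
Log2 fold change (shEHD1+Dox against shNTC+Dox) of tested genes in the 3 kinesin classes and 5 related lists, with the number tested in brackets, filled points for an adjusted p under 0.05 and black bars for medians. Medians lie between -0.11 for cilium and other kinesins and 0.24 for transport kinesins, and KIF14 is the red filled point at -1.34.

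KIF14 also differed from the other kinesins in a feature of its 3′ untranslated region. The word AAGCTCT, known from earlier work on these same libraries to mark genes with lower fold changes, and hence no independent evidence here, occurs in the MANE Select 3′ untranslated regions (GENCODE 44) of 8 of the 42 kinesins. KIF14 was the kinesin with 2 copies, in a region of 1888 bases, at positions 1432 and 1514. The copies are shown with the word in capitals (GRCh38).
KIF14 upstream copy (chr1:200551938-200551967, minus strand): gtggtgttttcAAGCTCTttaaaatggtac
KIF14 downstream copy (chr1:200551856-200551885, minus strand): tattctttctgAAGCTCTatatgtgttttt

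Single copies lay in KIF1B, KIF1C, KIF2A, KIF21A, KIF5A, KIF26B and KIF5C. None of the 5 of these that were tested was called in the main fit. Their log2 fold changes were positive in KIF1B, KIF1C and KIF2A and negative in KIF21A and KIF5A. Without shNTC+Dox replicate 3 KIF1B and KIF1C were called higher and KIF21A and KIF5A lower. The Wald test of DESeq2 called KIF1B higher and KIF21A lower. Of 12778 tested genes with such a region, 13.9% carried the word and 2.08% at least 2 copies. Carriers were called lower in 20% of cases and higher in 7.34%, against 8.20% and 11.4% of genes without the word. Genes with at least 2 copies were called lower in 21.1% and higher in 7.89%, near the shares of all carriers. The median region of carriers was also longer, at 3242 against 1121 bases without the word, and 4800 bases with at least 2 copies. The part of the word and of region length in the fall of KIF14 was not tested.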

How the data were processed

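RNA-seq of 6 TC71 libraries was analyzed, 3 shNTC+Dox and 3 shEHD1+Dox, grouped by the sample labels. Per the methods the authors aligned reads to hg38 with hisat2 and quantified transcripts with StringTie, whereas the submitters' processing notes list STAR 2.7.3a and DESeq2; the steps that made the table are therefore uncertain. The table they deposited holds whole-number counts from a kit that keeps no strand, with no scaling by the authors. Whether these are direct read counts or were derived from StringTie's transcript estimates is not stated. Totals ran from 22711235 to 30582187 counts.

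Counts were scaled by TMM and tested with edgeR 4.0.16 in R 4.3.3 (glmQLFit with robust estimation, glmQLFTest), on the 16785 genes that reached 10 counts in 3 or more libraries, and p-values were adjusted over all of them by Benjamini-Hochberg. DESeq2 1.42.0 was an alternative. CPM values are TMM-scaled, and log2 CPM used a prior count of 2. Exact permutation tests were two-sided. Coordinates, exon overlaps and 3′ regions came from GENCODE 44, which held all 42 kinesins, and promoters from RefSeq. Tested on simulated data for this comparison (16429 genes, log2 changes of 1.5 in 200), edgeR recovered 83.5% of changed genes with 7 false calls. The simulation held no deviating library. Its changes were larger than those of the called transport kinesins (from 0.44 for KIF16B to -0.81 for KIFC2), so these rates do not apply to them. Floors cover counting error only and treat the values as read counts.

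The kinesins, classes and lists were chosen with earlier results of these data known. All kinesins called are named, along with genes fixed for each list; other names were added after their values were seen. The alternatives were other scaling, filters and tests, a replicate block, omission of each library, a fold of at least 2, members without shared exons, other class borders, transcript length, and a shorter promoter window. No set test was run. One further marker list is not reported here. Replicates all differed beyond sampling noise (chi-square per degree of freedom 5.64 to 27.9), if the values are taken as read counts.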

Additional observations from a re-analysis of the deposited data

How the results depend on the processing

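KIF14 passed the threshold under all 11 alternative fits, those that leave out a library included. The count of 5 kinesins called was 8 with DESeq2 (23.9% of all genes) and 1 with a fold of at least 2. It was 3 without members whose exons overlap another gene, a step that leaves out 18 of the 33 tested. When 1 library was left out it ran from 2 to 10: 2 without any of the 3 shEHD1+Dox libraries and 10 without shNTC+Dox replicate 3. Across all genes the omissions gave 1322 to 3616 calls against 2910. Called by edgeR, by DESeq2 and in every omission was 1 kinesin, KIF14, a criterion added after the data were seen. The 4 transport kinesins called became 0 with a fold of at least 2, 2 without overlapping exons, and 1 to 8 when a library was left out. Mitotic kinesins called lower were 1, or 2 with DESeq2, which added KIF22. The median log2 fold change of transport kinesins stayed positive in every setting (0.15 to 0.28), while that of mitotic kinesins lay between -0.05 and 0.08 and changed sign. The causes were not tested.

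The replicate number was entered as a block, although same-numbered libraries did not deviate together (mean correlation -0.01 over 3 pairs, and no origin of the numbers is given). With the block 5 kinesins were called, 1 mitotic lower and 4 transport, with class medians of -0.01 and 0.24, while all genes had 1766 calls (10.5%). Of the list genes named by the rule, MKI67 and TOP2A lost their calls with the block (adjusted p = 0.0665 and 0.0926). Of the other 24 called list genes 6 did (CCNB2, CD99, DCTN4, DYNC1LI1, TUBA8 and TUBB3), and 11 lost the call in at least 1 omission of a library. The longest transcript in place of all exons moved 21 of 34 levels per kilobase by more than their SD. The words TTTGAA or TTCGAA lay in 3393 genes (12.4%) in the window from 150 bases before to 50 after the start. At these depths 9 kinesins did not reach the filter, 4 of them with no count, and KIF9, KIF17 and KIF21B had at most 94 counts in a library.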

Other observations

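Of 23 subunits and regulators of dynein and dynactin, the minus end directed motor and its activator, 5 (21.7%) were called higher and 2 (8.70%) lower, beside 8.59% and 8.75% of all genes, with a median log2 fold change of 0.11. DYNC1H1, the dynein heavy chain, rose from 910, 963 and 1067 CPM in shNTC+Dox to 1324, 1629 and 1272 CPM in shEHD1+Dox (0.52, SE 0.11, edgeR adjusted p = 0.0129), without overlap of the groups and with 1033 exonic bases shared with other genes. Its adjusted p was 0.0511 without shNTC+Dox replicate 1. DCTN1, the largest dynactin subunit, had a log2 fold change of 0.18 (SE 0.06, adjusted p = 0.0653) and was called higher by DESeq2 (adjusted p = 0.0130) and without shNTC+Dox replicate 3 (0.0434). The other calls, named after their values were seen, were DYNC1I2, DYNC1LI1, DCTN4 and NDE1 higher and DCTN5 (-0.87, SE 0.07) and PAFAH1B1 (-0.47, SE 0.08) lower. DYNC1LI1 lost its call in 5 of the 6 omissions of a library, DCTN4 in 3 and DYNC1I2 in 2. DCTN5 shares 3315 of its 12683 exonic bases with other genes, so the assignment of its reads is uncertain, and NDE1 (1680 bases), DCTN1 (1227) and PAFAH1B1 (1004) share some too.

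Of 16 tubulins 2 (12.5%) were called higher and 3 (18.8%) lower, beside 8.59% and 8.75% of all genes, with a median log2 fold change of -0.04. TUBB2A (0.63, SE 0.11) and TUBB2B (0.82, SE 0.13), which encode near-identical beta tubulins so that reads between them are uncertain, rose, and TUBB3 (-0.47, SE 0.13), TUBG1 (-0.49, SE 0.09) and TUBA8 (-1.44, SE 0.40) fell. All 5 were named after their values were seen. TUBA8 lost its call in all 6 omissions of a library and TUBB3 in 4, and they share 2480 of 5424 and 1584 of 7421 exonic bases with other genes.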
